A study of Mus musculus with 10 samples.

Results

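The 8 genes described here encode transcription factors that give segments of the kidney tubule their identity: Hnf4a, Hnf4g, Pax2, Pax8, Esrrg, Tfcp2l1, Foxi1 and Nr1h4. They were picked by gene name as factors of the proximal or distal tubule, and are 8 of 54532 genes in the deposited count table. A nephron is a chain of epithelial segments, and each segment keeps its transporters switched on through a small set of transcription factors. HNF4A, a nuclear receptor, drives the mature genes of the proximal tubule, PAX2 and PAX8 build the nephron in the embryo, and TFCP2L1 and FOXI1 shape the collecting duct and its acid-secreting intercalated cells. In a kidney whose ureter is blocked, tubule cells are known to lose such mature genes while scar tissue and immune cells build up.

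Bulk RNA sequencing was done on obstructed kidneys, 14 days after unilateral ureteral obstruction (UUO) of male wild-type (WT) C57BL/6 mice that were 8 weeks old at surgery. DMM kidneys came from mice given dimethyl malonate, an inhibitor of succinate dehydrogenase, by intraperitoneal injection at 40 mg/kg every other day. Control kidneys came from mice with the same obstruction that received PBS. Each group held 5 libraries, 1 per mouse, and kidneys without obstruction were not among the samples, so the comparison addresses DMM within obstruction alone. Control libraries held 16457495 to 18078777 counts in total, and DMM libraries 15722527 to 19475833.

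Levels are given as CPM, the count scaled for library size by edgeR's TMM method. Groups were compared gene by gene with the quasi-likelihood F test of edgeR, and p was adjusted over all tested genes by the Benjamini-Hochberg method. A gene was called when its adjusted p was under 0.05 and its fold change above 1.5. In whole kidney, fewer cells of a type and less RNA per cell cannot be told apart.

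3 libraries stood apart and bear on every value below. DMM 4 had Spearman correlations between 0.924 and 0.935 with the other libraries across the tested genes, while all other pairs had 0.948 to 0.994. In DMM 4, 20029 genes were detected, against 22898 to 24083 in the other libraries, and 5.62% of counts fell on mitochondrial genes. Its values followed gene length. Relative to the rest of its group, the median gene was lower by a log2 value of -0.58 among the 5505 genes with the shortest lengths (57 to 2893 bp) and higher by 0.44 among the 5500 with the longest (5385 to 123179 bp). Tfcp2l1, Esrrg, Pax8 and Pax2 belong to the longest, with deposited lengths of 9438, 6208, 6061 and 5409 bp, and Hnf4g, Foxi1 and Nr1h4 to the shortest, with 2630, 2357 and 2303 bp.

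Control 3 and DMM 1 were as close to libraries of the opposite group as to their own, or closer. Control 3 had Spearman correlations of 0.982 to 0.988 with DMM 2, 3 and 5 and of 0.966 to 0.987 with the other controls. DMM 1 had 0.98 to 0.994 with the controls and 0.964 to 0.977 with DMM 2, 3 and 5. Mitochondrial genes held 3.66% of counts in control 3, against 1.97% to 2.30% in the other controls, and 2.30% in DMM 1, against 3.79% to 5.62% in the other DMM libraries. These are also the libraries that the authors' deposited group means leave out, with a weight of 0 for each. The paper's methods describe a DESeq2 comparison with 5 replicates, which differs from these means. The sources used here do not say why control 3 and DMM 1 were left out. Results are therefore given over all 10 libraries and over the 8 libraries of the deposited means, and, where it matters, over the 7 that remain without DMM 4. For a gene that follows the same order, leaving out a library of each group that lies with the other group widens the difference between groups. The p-values and group overlap over the 8 and 7 libraries do not account for that choice, and they are no independent check of those over all 10.

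Over all 10 libraries, 0 of the 8 transcription factors were called, and 0 of 16505 tested genes were (0%), by edgeR's test. DESeq2 on the same libraries called 14 genes higher and 36 lower, and 0 of the 8. Where the unadjusted edgeR p was held to 0.05 together with the same fold change, 1 of the 8 was higher (Tfcp2l1), against 1.91% of all tested genes, and 0 were lower, against 4.11%. That count was 4 without control 3 or without DMM 1, where 4.21% and 3.99% of tested genes were higher in this way. It was 2 without DMM 2 or without DMM 5 (2.34% and 1.73% of genes) and 0 without DMM 4 (1.86%). Without DMM 1, edgeR's adjusted test called 50 genes higher and 436 lower, 0 of the 8 among them.

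Over the 8 libraries, 2 of the 8, Hnf4a and Nr1h4, were called higher by edgeR, against 452 of 16550 tested genes (2.73%), and 0 were called lower, against 590 genes (3.56%). For Hnf4a and Nr1h4 the 2 libraries left out are a control kidney at the level of DMM kidneys and a DMM kidney at the level of controls, so both calls depend on the choice of libraries, which the adjusted p does not account for. DESeq2 called 4 of the 8 there, adding Esrrg and Tfcp2l1, and called 749 of the 30116 genes it gave a p as higher (2.49%) and 911 as lower (3.02%). At the unadjusted threshold these same 4 were higher, against 6.45% of genes, and 0 lower, against 7.24%, and the 4 became 2 without DMM 4, against 7.67% of genes higher there. The count of called factors was 0 without control 1, control 2, DMM 3 or DMM 5, and 1 without control 4. Counts of called genes moved as well. Without control 1, 2, 4 or 5 there were 225, 198, 160 and 131 genes higher and 367, 349, 317 and 276 lower. Without DMM 3, 4 or 5 there were 186, 1129 and 168 higher and 308, 1281 and 302 lower.

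The median log2 fold change of the 8 factors was 0.38 over all 10 libraries and 0.54 over the 8, against 0.02 and 0.02 for all tested genes. The fitted change was above 0 for 7 of the 8 factors over all 10 libraries, Hnf4g among them at 0.0008, and for 52.8% of all tested genes. Over the 8 libraries it was positive for 6 of the 8, against 52.4%. Values of the groups did not overlap for 1 factor over all 10 libraries, Tfcp2l1, which was higher in every DMM library than in any control, against 0.794% of tested genes that were higher and 1.16% that were lower in this way. Within the 8 libraries 4 factors (Hnf4a, Esrrg, Tfcp2l1 and Nr1h4) were higher without overlap, against 9.45% of genes, and 1 was lower, Pax2, against 10.6%. All 8 factors passed the filter on low counts.

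**Figure D1:**
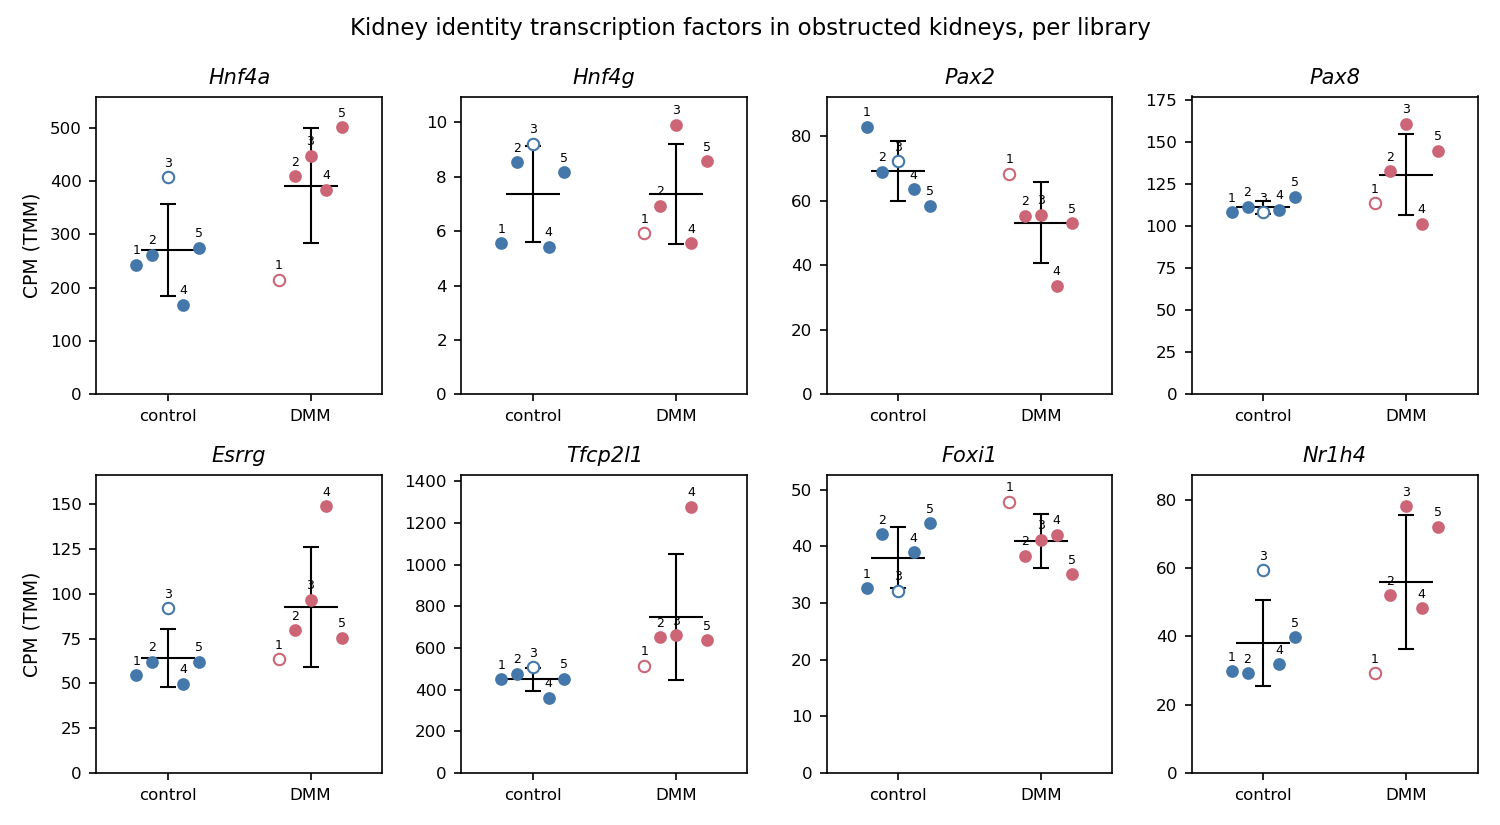
Level of each transcription factor in CPM (y axis, from 0) in the 5 control and 5 DMM kidneys, with replicate numbers beside the points; bars are the mean and SD of 5 libraries, and open circles are control 3 and DMM 1, which the deposited group means leave out. Tfcp2l1 alone has no overlap between the groups, with DMM 4 far above the rest at 1279 CPM.

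The nuclear receptors of the proximal tubule come first. Hnf4a (ENSMUSG00000017950, chr2:163506808-163572910, plus strand of GRCm38) encodes the receptor that sustains transport and metabolic genes there. It was at 243, 262, 407, 168 and 275 CPM in controls 1 to 5 and at 215, 409, 448, 384 and 500 CPM in DMM 1 to 5. DMM 2, 3 and 5 were above every control, DMM 4 was above all but control 3, and DMM 1 lay among the low controls. The mean was 271 ± 86.4 CPM in control and 391 ± 108 CPM in DMM kidneys (SD, n = 5).

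The log2 fold change of Hnf4a was 0.53 over all 10 libraries (SE 0.26, edgeR adjusted p = 0.482). Over the 8 libraries the means were 237 ± 47.6 and 435 ± 50.7 CPM (SD, n = 4), with no overlap between groups. There the log2 fold change was 0.88 (SE 0.17, edgeR adjusted p = 0.0194), and without DMM 4 it was 0.93 (edgeR adjusted p = 0.00257). The call over the 8 libraries did not depend on DMM 4, but it was lost without control 1, control 2, DMM 3 or DMM 5, at edgeR adjusted p of 0.0597, 0.0512, 0.0614 and 0.0642, while the log2 fold change was between 0.74 and 0.95 in the 8 fits that each leave out 1 library.

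Hnf4g (ENSMUSG00000017688, chr3:3508030-3658052, plus strand), the paralog of Hnf4a, had the lowest counts of the 8, between 92 and 175 per library. It was at 5.56, 8.53, 9.22, 5.43 and 8.18 CPM in controls 1 to 5 and at 5.93, 6.93, 9.92, 5.56 and 8.57 CPM in DMM 1 to 5. The groups covered nearly the same range. For Hnf4g the log2 fold change was 0.00 over all 10 libraries (SE 0.22, edgeR adjusted p = 0.999). It was below 0 without control 1, control 4, DMM 3 or DMM 5, at -0.09, -0.09, -0.13 and -0.06, and at -0.07 when scaled by library size alone. The value was 0.16 over the 8 (SE 0.25, edgeR adjusted p = 0.748). The longest run of bases that annotated transcripts of Hnf4a and Hnf4g share is 17.

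Nr1h4 (ENSMUSG00000047638, chr10:89454234-89533585, minus strand) encodes FXR, the bile acid receptor, which is abundant in liver, gut and kidney tubule. It was at 29.8, 29.3, 59.4, 31.9 and 39.8 CPM in controls 1 to 5 and at 29.2, 52.1, 78.2, 48.2 and 72.1 CPM in DMM 1 to 5. As for Hnf4a, control 3 lay among the DMM kidneys and DMM 1 among the low controls, here level with control 2. Pearson's r between their log2 CPM was 0.906 over the 10 libraries (Spearman's rho 0.891) and 0.911 without DMM 4, as a description over libraries that share their scaling.

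For Nr1h4 the log2 fold change was 0.56 over all 10 libraries (SE 0.28, edgeR adjusted p = 0.493). Over the 8 it was 0.94 (SE 0.19, edgeR adjusted p = 0.0205), with means of 32.7 ± 4.88 and 62.6 ± 14.7 CPM (SD, n = 4) and no overlap. Without DMM 4 it was 1.05 (edgeR adjusted p = 0.00148). The call was lost without control 1, control 2, control 4, DMM 3 or DMM 5, at edgeR adjusted p of 0.0688, 0.0736, 0.076, 0.0616 and 0.0671, while the log2 fold change was between 0.81 and 1.05 in the 8 fits that each leave out 1 library.

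Genes known to be driven by FXR were read beside it. 5 of 8 could be tested, and Nr0b2 (the repressor SHP), Abcb11 (the bile salt export pump) and Fgf15 had at most 15 counts in any library. 0 were called over all 10 libraries by edgeR or DESeq2, and 2 passed the unadjusted threshold, both higher. Slc51b, a subunit of the basolateral organic solute transporter, was at 4.55, 2.94, 6.97, 3.41 and 3.94 CPM in controls 1 to 5 and at 4.94, 9.33, 9.18, 6.40 and 10.2 CPM in DMM 1 to 5. DMM 2, 3 and 5 exceeded every control, and DMM 4 all but control 3. The fitted log2 fold change was 0.87 over all 10 libraries (edgeR adjusted p = 0.385) and 1.24 over the 8 (edgeR adjusted p = 0.0125). Kng1, the kininogen gene, was the other target called over the 8 libraries (log2 fold change 1.03, edgeR adjusted p = 0.0489; 0.78 over all 10, edgeR adjusted p = 0.418). Slc51a, Fetub and Sdc1 were not called, with 0.33, 0.19 and -0.42 over all 10 libraries and 0.61, 0.23 and -0.75 over the 8, and Fetub had the opposite sign without DMM 4, at -0.17. Without DMM 4 the called targets were again 2, Slc51b and Kng1. The median over the 5 tested targets was 0.33 over all 10 libraries and 0.61 over the 8, against 0.02 for all tested genes in each set.

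Among receptor partners and coregulators, 8 of 10 could be tested, 0 were called over all 10 libraries by edgeR or DESeq2 (1 at the unadjusted threshold) and 1 was called higher over the 8 by either tool. This was Ppargc1a, the coactivator of mitochondrial genes. It was at 50.2, 36.3, 63.5, 30.6 and 41.0 CPM in controls 1 to 5 and at 40.9, 58.1, 73.3, 135 and 70.5 CPM in DMM 1 to 5. DMM 4 was the highest by far, and control 3 exceeded DMM 1 and DMM 2. Ppargc1a had a log2 fold change that came to 0.77 over all 10 libraries (edgeR adjusted p = 0.409), 1.09 over the 8 (edgeR adjusted p = 0.045) and 0.77 without DMM 4 (edgeR adjusted p = 0.00609). Rxra, the partner that NR1H4 binds DNA with, named after its value was seen, had 0.15 over all 10 and 0.28 over the 8 (edgeR adjusted p = 0.174 there). Ncor1, the most abundant of the list, had 0.44 and 0.57, and Ncoa2, another coregulator, 0.28 and 0.37, neither called. Ncor1 was at 675 CPM in DMM 4 against 250 to 306 CPM in the other libraries, and without DMM 4 the values were 0.18 (edgeR adjusted p = 0.0465, fold change under 1.5) and 0.15. The median of the list was 0.22 over all 10 libraries, 0.33 over the 8 and 0.17 without DMM 4.

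Proximal tubule markers were read beside Hnf4a and Nr1h4. Their summed level was 4021, 3976, 10617, 1458 and 2910 CPM in controls 1 to 5 and 2956, 8332, 7047, 5757 and 10652 CPM in DMM 1 to 5, so that control 3 lay with the DMM kidneys and DMM 1 with the controls here too. All 15 markers could be tested, and Kap was the most abundant, at a mean of 2270 CPM, and was not called over the 8 libraries (0.98, edgeR adjusted p = 0.278, and 0.23 over all 10). All 15 had a positive fold change in both sets of libraries, with a median of 0.71 over all 10 and 1.67 over the 8 on the log2 scale.

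0 of the 15 were called over all 10 libraries by edgeR or DESeq2, with 2 higher at the unadjusted threshold. Within the 8, 5 were called higher by edgeR and 11 by DESeq2. Among these 5, Cubn and Lrp2, the receptors for protein uptake, and Slc5a12, a lactate transporter, had log2 fold changes of 1.73, 1.97 and 2.11 over the 8 libraries (edgeR adjusted p = 0.0113, 0.0138 and 0.00812) and of 1.18, 1.24 and 1.22 over all 10. Cyp2e1 and Slc13a3, named after their values were seen, were the others, at 1.67 and 2.11, and at 0.95 and 1.19 over all 10. Without DMM 4, 14 of 15 were called higher, against 6.71% of 16828 tested genes, and 7.61% of genes were called lower. The part of proximal tubule cells in the values of Hnf4a and Nr1h4 was not tested.

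**Figure D2:**
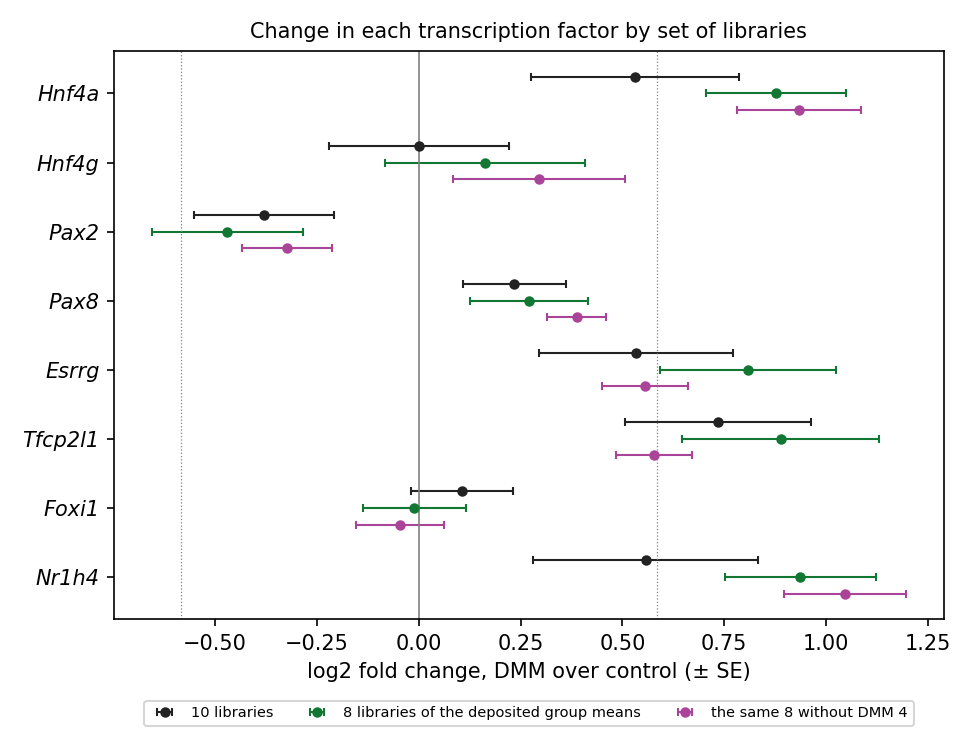
Log2 fold change of DMM over control kidneys (x axis) for each transcription factor, with bars of 1 standard error, in 3 sets of libraries: all 10 (black), the 8 of the deposited group means (green) and the same without DMM 4 (purple), and dotted lines at a fold change of 1.5. Hnf4a and Nr1h4 are further from 0 in the smaller sets, and Tfcp2l1 and Esrrg are nearer to 0 over the 7 libraries than over the 8.

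Tfcp2l1 and Foxi1 act in the distal nephron and collecting duct. Tfcp2l1 (ENSMUSG00000026380, chr1:118627945-118685168, plus strand), a grainyhead-related factor needed for the mix of principal and intercalated cells, was at 450, 477, 507, 361 and 453 CPM in controls 1 to 5 and at 514, 650, 660, 1279 and 637 CPM in DMM 1 to 5. Every DMM library exceeded every control, with DMM 1 just above control 3 and DMM 4 far above the other DMM libraries. The means were 450 ± 54.6 and 748 ± 302 CPM (SD, n = 5).

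For Tfcp2l1 the log2 fold change was 0.73 over all 10 libraries (SE 0.23, edgeR adjusted p = 0.382). It rested in part on DMM 4: without this library it was 0.45 (edgeR adjusted p = 0.256), a fold change under 1.5. Over the 8 libraries it was 0.89 (SE 0.24, edgeR adjusted p = 0.0622). Over the 7 without DMM 4 it was 0.58 (edgeR adjusted p = 0.00242), a fold change just short of 1.5, so that edgeR called it in none of these sets. DESeq2 called it over the 8 (adjusted p = 0.0079).

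Esrrg (ENSMUSG00000026610, chr1:187608791-188214885, plus strand) encodes an orphan nuclear receptor that controls genes of oxidative metabolism. It was at 54.8, 62.1, 92.1, 49.9 and 62.2 CPM in controls 1 to 5 and at 63.5, 79.9, 96.7, 149 and 75.6 CPM in DMM 1 to 5. DMM 4 was again the highest library, and control 3 was above DMM 1, DMM 2 and DMM 5. Pearson's r of log2 CPM with Tfcp2l1 was 0.923 over the 10 libraries (Spearman's rho 0.915) and 0.815 without DMM 4. Without DMM 4, r of Esrrg was higher with Hnf4a (0.883) and Nr1h4 (0.865), where it was 0.722 and 0.633 over the 10.

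For Esrrg the log2 fold change was 0.53 over all 10 libraries (SE 0.24, edgeR adjusted p = 0.453), and 0.30 without DMM 4 (edgeR adjusted p = 0.392). Over the 8 libraries it was 0.81 (SE 0.22, edgeR adjusted p = 0.0572), and over the 7 without DMM 4 it was 0.56 (edgeR adjusted p = 0.00517), below a fold change of 1.5. DESeq2 called it over the 8 (adjusted p = 0.00984). Tfcp2l1 and Esrrg are long genes, and DMM 4 was high for the median long gene. Pax8 and Pax2 are long genes too, and DMM 4 was the lowest of the 10 libraries for both, at 101 and 33.7 CPM. The part of gene length in these values was not tested.

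Foxi1 (ENSMUSG00000047861, chr11:34204338-34208089, minus strand), the master factor of intercalated cells, was at 32.6, 42.1, 32.2, 38.9 and 44.1 CPM in controls 1 to 5. In DMM 1 to 5 it was at 47.9, 38.3, 41.1, 42.0 and 35.1 CPM. The groups overlapped widely, and DMM 1 held the highest value. The log2 fold change was 0.11 over all 10 libraries (SE 0.13, edgeR adjusted p = 0.739) and -0.01 over the 8 (SE 0.13, edgeR adjusted p = 0.97), so that its direction depended on the set of libraries.

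Genes that FOXI1 is known to switch on in these cells were read beside it, and their difference from Foxi1 was not tested. Slc26a4 encodes pendrin, the chloride-bicarbonate exchanger of base-secreting intercalated cells. It was at 29.8, 29.3, 36.3, 16.4 and 27.4 CPM in controls 1 to 5 and at 50.7, 50.4, 56.8, 54.1 and 53.4 CPM in DMM 1 to 5. All 5 DMM kidneys, DMM 1 and DMM 4 included, were above all 5 controls. For Slc26a4 the log2 fold change was 0.93 over all 10 libraries (SE 0.17), which did not pass edgeR's test (edgeR adjusted p = 0.378), and 1.06 over the 8 (SE 0.18, edgeR adjusted p = 0.0118).

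Atp6v0a4, a subunit of the proton pump, was at 111, 105, 168, 76.4 and 103 CPM in controls 1 to 5 and at 115, 178, 237, 191 and 234 CPM in DMM 1 to 5. DMM 2 to 5 were above every control. It had log2 fold changes of 0.76 over all 10 libraries (edgeR adjusted p = 0.378) and 1.09 over the 8 (edgeR adjusted p = 0.00594). Slc4a1, the anion exchanger of acid-secreting cells, had 0.75 over all 10 (edgeR adjusted p = 0.547) and 1.55 over the 8 (edgeR adjusted p = 0.0162), with control 3 at 19.8 CPM against 3.12 to 7.26 CPM in the other controls.

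Of the 7 genes in this list of FOXI1 targets, all were tested. Over all 10 libraries edgeR called 0, with 2 past the unadjusted threshold, and DESeq2 called 1, Slc26a4. Over the 8, 3 were called higher by edgeR (Slc26a4, Atp6v0a4 and Slc4a1) and 6 without DMM 4. Car2, the carbonic anhydrase shared with other tubule cells, was the most abundant, at 205 CPM on average, and its log2 fold change was 0.33 over all 10 libraries and 0.56 over the 8 (edgeR adjusted p = 0.0261), short of a fold change of 1.5. The median of the list was 0.43 over all 10 libraries and 0.56 over the 8.

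**Figure D3:**
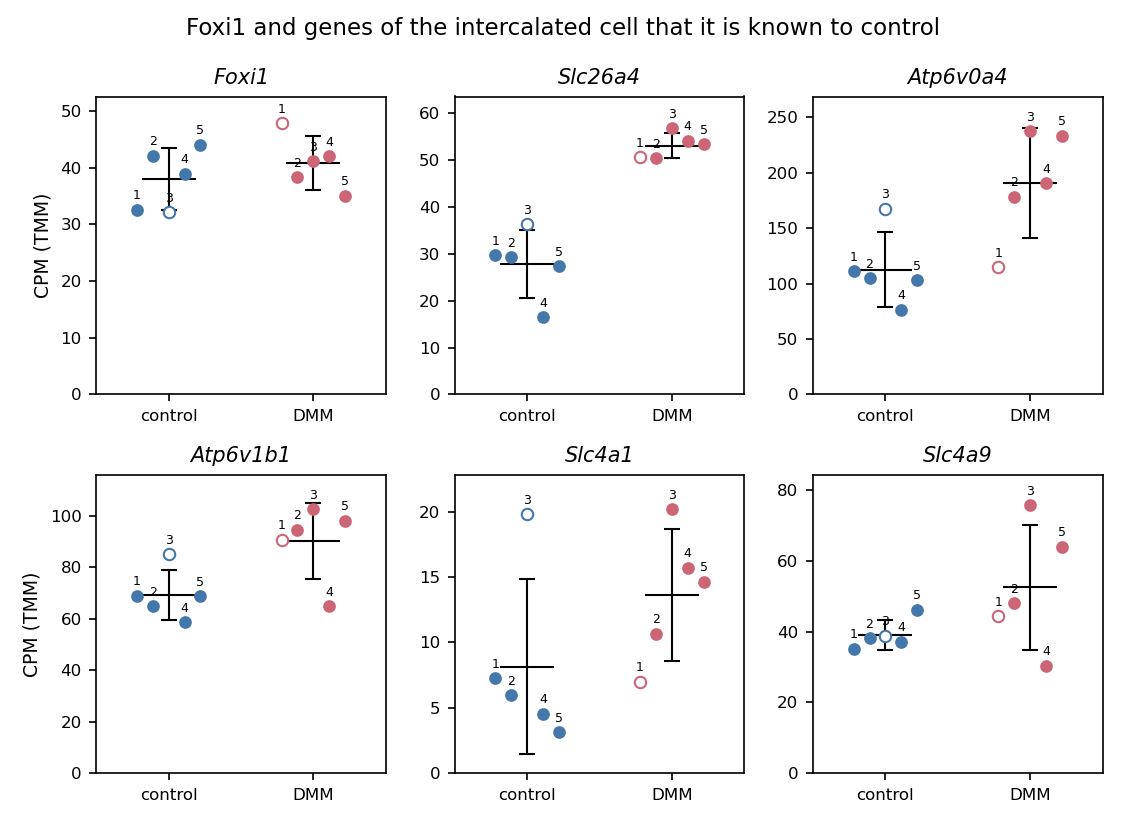
Foxi1 and 5 genes of intercalated cells that it is known to control, in CPM (y axis, from 0), in the 5 control and 5 DMM kidneys, with replicate numbers; bars are the mean and SD of 5 libraries, and open circles are control 3 and DMM 1. Foxi1 overlaps between groups, while Slc26a4 lies between 16.4 and 36.3 CPM in controls and between 50.4 and 56.8 CPM in DMM kidneys.

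The wider lists of cell markers put these values in context. Intercalated cell markers, which share 4 genes with the FOXI1 targets, summed to 331, 322, 444, 285 and 332 CPM in controls 1 to 5 and to 445, 471, 605, 406 and 512 CPM in DMM 1 to 5. All 12 had positive fold changes in both sets, with a median of 0.50 over all 10 libraries and 0.64 over the 8 on the log2 scale. Over all 10 libraries edgeR called 0, with 1 past the unadjusted threshold, and DESeq2 called 1, which was Slc26a4 in either case. 5 were called higher over the 8: Slc26a4, Atp6v0d2, Oxgr1, Slc4a1 and, named after its value was seen, Rhcg. DESeq2 called 6 there, and edgeR 8 without DMM 4. Atp6v0d2 was not among those 8, at 0.53 (edgeR adjusted p = 0.00563) with a fold change under 1.5. Atp6v0d2, Oxgr1 and Rhcg had log2 fold changes of 0.53, 0.56 and 0.40 over all 10 and 0.63, 0.73 and 0.66 over the 8. Atp6v1b1 was the most abundant, at 79.8 CPM. Foxi1 itself lay within its control range in 4 of 5 DMM kidneys. The part of the number of intercalated cells in these values was not tested.

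Principal cell markers summed to 390, 365, 610, 287 and 328 CPM in controls 1 to 5 and to 418, 490, 592, 299 and 542 CPM in DMM 1 to 5, with Hsd11b2 the most abundant. 7 of 8 were tested, and edgeR called 0 over the 8 libraries, where 3 passed the unadjusted threshold and DESeq2 called 1 (Aqp2). Without DMM 4, edgeR called 3 higher: Aqp3, Scnn1g and, named after its value was seen, Aqp2. EdgeR and DESeq2 called 0 over all 10 libraries, with 0 past the unadjusted threshold. Aqp3, Scnn1g and Scnn1b had log2 fold changes of 0.52, 0.32 and 0.22 over all 10 libraries and 0.85, 0.58 and 0.38 over the 8, and the list's medians were 0.32 and 0.58. Of the 7 tested, 6 were positive in both sets. Hsd11b2 had 0.12 over all 10 and 0.18 over the 8. Fxyd4, named after its value was seen, had -0.23 and -0.09, and 0.20 without DMM 4.

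Markers of the thick ascending limb summed to 2994, 2502, 4207, 1888 and 1636 CPM in controls 1 to 5 and to 2535, 4045, 4661, 1870 and 5318 CPM in DMM 1 to 5. EdgeR and DESeq2 called 0 of 7 over all 10 libraries, with 2 higher at the unadjusted threshold, Kcnj1 and Ptger3, at 0.61 and 0.69. 4 of 7 were called higher over the 8 libraries, among them Kcnj1 (0.92, edgeR adjusted p = 0.00928) and Ptger3 (1.02, edgeR adjusted p = 0.0159), with Slc12a1 and, named after its value was seen, Egf, and the list's median was 0.61 over all 10 and 0.92 over the 8. DESeq2 also called 4 there. Slc12a1 and Egf had 0.94 and 1.19 over all 10 and 1.53 and 2.61 over the 8. Umod, its most abundant gene, had 0.36 over all 10 and was not called over the 8 (0.62, edgeR adjusted p = 0.389). Without DMM 4, all 7 were called higher, Umod at 0.90 (edgeR adjusted p = 0.00661).

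Markers of the distal convoluted tubule summed to 416, 337, 589, 242 and 269 CPM in controls 1 to 5 and to 373, 532, 678, 480 and 578 CPM in DMM 1 to 5. EdgeR and DESeq2 called 0 of 5 tested markers over all 10 libraries, with 0 past the unadjusted threshold. 2 of 5 were called by either tool over the 8 libraries and 2 by edgeR without DMM 4: Slc12a3 (0.95, edgeR adjusted p = 0.0497) and Calb1 (1.86, edgeR adjusted p = 0.0207), the latter named after its value was seen, and these had 0.61 and 0.77 over all 10. Klhl3 and Wnk4, regulators of salt transport, were not called, at 0.31 and 0.22 over all 10, 0.47 and 0.36 over the 8, and 0.27 and 0.46 without DMM 4, where Wnk4 passed the adjusted p (edgeR adjusted p = 0.0222) with a fold change under 1.5. The list's medians were 0.31 over all 10 and 0.47 over the 8, and Slc12a3 was the most abundant. The part of these cells in the values of the 8 factors was not tested.

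PAX2 and PAX8, paired-box factors that start kidney development and stay on in tubule cells, gave opposite signs. Pax2 (ENSMUSG00000004231, chr19:44756045-44837871, plus strand) was at 83.1, 69.1, 72.4, 63.6 and 58.5 CPM in controls 1 to 5 and at 68.4, 55.5, 55.8, 33.7 and 53.1 CPM in DMM 1 to 5. DMM 4 was the lowest library, and DMM 1 lay among the controls. For Pax2 the log2 fold change was -0.38 over all 10 libraries (SE 0.17, edgeR adjusted p = 0.457) and -0.25 without DMM 4 (edgeR adjusted p = 0.291). Over the 8 libraries it was -0.47 (SE 0.18, edgeR adjusted p = 0.179), with DMM 2 to 5 below controls 1, 2, 4 and 5. Without DMM 4 it was -0.32 (edgeR adjusted p = 0.0559).

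Pax8 (ENSMUSG00000026976, chr2:24420560-24475599, minus strand) was the steadiest factor in controls, at 108, 112, 108, 110 and 118 CPM in controls 1 to 5. In DMM 1 to 5 it was at 114, 133, 161, 101 and 145 CPM. DMM 2, 3 and 5 were above all controls, and DMM 4 was the lowest of the 10 libraries. The log2 fold change was 0.23 over all 10 libraries (SE 0.13, edgeR adjusted p = 0.513) and 0.27 over the 8 (SE 0.15, edgeR adjusted p = 0.324). Without DMM 4 the 8 gave 0.39 (edgeR adjusted p = 0.00488), a fold change under 1.5.

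Levels of different genes were set side by side as CPM per kilobase of the deposited gene length. In control kidneys the order was Hnf4a (56.1 ± 17.9), Tfcp2l1 (47.6 ± 5.79), Pax8 (18.3 ± 0.63), Nr1h4 (16.5 ± 5.50), Foxi1 (16.1 ± 2.30), Pax2 (12.8 ± 1.73), Esrrg (10.3 ± 2.65) and Hnf4g (2.81 ± 0.67), each as mean and SD in CPM per kilobase with n = 5. Hnf4a exceeded Tfcp2l1 in 4 of 5 controls, and their ranges overlapped. Tfcp2l1 exceeded Pax8 in 10 of 10 libraries, and Esrrg exceeded Hnf4g in 10 of 10.

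The genes from Pax8 to Esrrg were near each other. Nr1h4 was above Foxi1 in 1 of 5 controls and in 4 of 5 DMM kidneys. Pax2 was above Esrrg in 4 of 5 controls and in 1 of 5 DMM kidneys. Pax8 was above Nr1h4 in 4 of 5 controls and in 1 of 5 DMM kidneys. In DMM kidneys Hnf4a had 81.0 ± 22.3 and Tfcp2l1 79.3 ± 32.0 CPM per kilobase (SD, n = 5), and Tfcp2l1 was at 135 in DMM 4.

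Other transcription factors of kidney epithelium showed how far the pattern reached. All 23 of the list passed the filter; 0 were called over all 10 libraries by edgeR or DESeq2, where 1 passed the unadjusted threshold, 1 was called higher over the 8 by either tool, and 3 without DMM 4 (Ppara, Hmx2 and Emx1). The median log2 fold change was 0.07 over all 10 and 0.27 over the 8, and 14 and 15 of 23 were positive. The called factor was Ppara, the fatty acid receptor of the proximal tubule, at 11.2, 13.7, 30.7, 8.25 and 19.8 CPM in controls 1 to 5 and 13.6, 30.6, 56.8, 38.9 and 48.8 CPM in DMM 1 to 5. Control 3 matched DMM 2, and DMM 1 lay among the controls, as for Hnf4a and Nr1h4. Its log2 fold change was 1.17 over all 10 libraries (edgeR adjusted p = 0.387) and 1.73 over the 8 (SE 0.29, edgeR adjusted p = 0.0109).

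Tfap2b, of the distal tubule, passed the adjusted p over the 8 (0.46, edgeR adjusted p = 0.0483) with a fold change under 1.5, and had 0.28 over all 10. Irx1, Irx2, Irx3, Lhx1, Pou3f3 and Gata3 are factors of nephron patterning or of the collecting duct. They were between -0.13 and 0.17 on the log2 scale over all 10 libraries and between -0.14 and 0.34 over the 8. Without DMM 4 they were between -0.12 and 0.55, and none was called in these sets. Irx1, Irx3 and Pou3f3 passed the adjusted p without DMM 4 (edgeR adjusted p = 0.0107, 0.0297 and 0.0259) with a fold change under 1.5. Hmx2, also of intercalated cells, was at 4.61, 4.88, 4.83, 2.66 and 4.71 CPM in controls 1 to 5 and at 8.76, 7.69, 7.88, 2.17 and 6.69 CPM in DMM 1 to 5. 4 DMM kidneys were above all controls and DMM 4 was the lowest library. Its log2 fold change was 0.61 over all 10 (edgeR adjusted p = 0.513), 0.54 over the 8 (edgeR adjusted p = 0.473) and 0.82 without DMM 4 (edgeR adjusted p = 0.0217).

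Of 16 relatives from the same gene families, 8 passed the filter, and the rest had at most 6 counts in any library, with Pax3, Pax4, Pax7, Foxi2 and Foxi3 at 0 in all 10. Among the 8 tested, edgeR called 0 in either set. Over all 10 libraries 1 passed the unadjusted threshold and DESeq2 called 0, and over the 8 libraries DESeq2 called 1 higher (Esrrb) and 1 lower (Pax5), which edgeR also called without DMM 4. Esrrb, the paralog of Esrrg, was at 8.84, 7.65, 13.7, 7.55 and 5.18 CPM in controls 1 to 5 and at 6.23, 19.5, 30.4, 7.13 and 29.1 CPM in DMM 1 to 5. DMM 2, 3 and 5 exceeded every control, whereas DMM 4 did not. Its fitted difference on the log2 scale was 1.10 over all 10 libraries (edgeR adjusted p = 0.428), 1.56 over the 8 (edgeR adjusted p = 0.053) and 1.85 without DMM 4 (edgeR adjusted p = 0.000461). Esrra had 0.04 and 0.20 over the 10 and the 8, and 0.38 without DMM 4 (edgeR adjusted p = 0.00687), below a fold change of 1.5. The median of the tested relatives was -0.05 over all 10, 0.01 over the 8 and 0.14 without DMM 4.

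Leukocyte markers had a median of -0.57 over all 10 libraries and -0.65 over the 8, and 2 of 12, Cd4 and Cd68, were called lower over the 8 (log2 fold change -1.19 and -0.97, edgeR adjusted p = 0.0271 and 0.0108). DESeq2 called 5 lower there, and edgeR 4 without DMM 4, where the median was -0.90. Cd4, Cd68 and Adgre1 had -0.96, -0.72 and -0.61 over all 10, and Adgre1 -0.65 over the 8. Both tools called 0 over all 10, where 5 were lower at the unadjusted threshold. Their sum was 692, 657, 623, 688 and 748 CPM in controls 1 to 5 and 606, 481, 384, 591 and 397 CPM in DMM 1 to 5, all DMM kidneys below all controls. Csf1r was the most abundant. Myofibroblast markers summed to 6205, 9302, 4786, 13672 and 8725 CPM in controls and to 10790, 4971, 3432, 6876 and 3836 CPM in DMM kidneys, with control 3 the lowest control and DMM 1 the highest DMM library. 2 of 9 were called lower over the 8: Col1a2 (-1.11, edgeR adjusted p = 0.0207) and Postn (-1.78, edgeR adjusted p = 0.00683). DESeq2 called 4 lower there, and over all 10 libraries both tools called 0, with 0 past the unadjusted threshold. Col3a1 was the most abundant. Col1a2, Postn and Col3a1 had -0.61, -0.86 and -0.57 over all 10, and Col3a1 -1.01 over the 8. The list's median was -0.20 over all 10 libraries, -0.45 over the 8 and -0.82 without DMM 4. Over all 10 libraries 3 of 9 had a positive log2 fold change, and over the 8 libraries 0 did. Without DMM 4, 5 were called lower: Col1a2, Col3a1, Postn and, named after their values were seen, Col1a1 and Fap. Col1a1 had -0.53 over all 10, -1.07 over the 8 and -1.35 without DMM 4. Fap had 0.05 over all 10, -0.32 over the 8 and -0.82 without DMM 4. The direction of Fap depended on the set of libraries. How far these cells' share of the RNA moved the tubule factors was not tested.

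Injury markers of the tubule had medians of -0.01 over all 10 libraries, -0.12 over the 8 and -0.10 without DMM 4. Of the 11, 5 were positive over all 10 and 4 over the 8. They summed to 18053, 20089, 16614, 23913 and 20343 CPM in controls 1 to 5. In DMM 1 to 5 the sums were 21048, 23282, 24760, 24138 and 19946 CPM. Spp1 was the most abundant, at a mean of 14338 CPM. EdgeR called 0 of the 11 over all 10 libraries or over the 8. Over the 8 libraries 1 passed the unadjusted threshold, lower, and DESeq2 called 1 lower there (Krt19). DESeq2 called 0 over all 10, where 0 passed the unadjusted threshold. Without DMM 4 edgeR called 4 lower: Krt19 and, named after their values were seen, Vcam1, Cd44 and Vim. Cd44 had 0.18 over all 10 and 0.07 over the 8, and had the opposite sign without DMM 4, at -0.66. Vcam1 had -0.16 over all 10, -0.41 over the 8 and -0.90 without DMM 4, and Vim -0.11, -0.35 and -0.84. Spp1, Krt19 and Prom1 had 0.30, -0.45 and 0.33 over all 10 and 0.30, -0.88 and 0.36 over the 8. Prom1 was at 538 CPM in DMM 4 against 205 to 250 CPM in the other libraries, and had the opposite sign without DMM 4, at -0.10. Of 13 tested factors of injury and mesenchyme, 1 was called over the 8, lower: Twist1, at -0.58 over all 10 libraries and -0.78 over the 8 (edgeR adjusted p = 0.0281), which DESeq2 called as well. EdgeR and DESeq2 called 0 over all 10 libraries, with 0 past the unadjusted threshold. Without DMM 4, 3 were called lower: Twist1 and, named after their values were seen, Snai2 and Zeb2. Snai2 had -0.16 over all 10, -0.42 over the 8 and -0.70 without DMM 4, and Zeb2 -0.05, -0.12 and -0.59. Klf5 and Klf6 had -0.30 and 0.20 over all 10, -0.45 and 0.15 over the 8, and -0.32 and 0.08 without DMM 4. Klf6 was the most abundant of the list, whose median was -0.03 over all 10, -0.12 over the 8 and -0.32 without DMM 4.

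For each factor, the 3 genes with the most similar log2 CPM across the 10 libraries were found, as a description over libraries that share depth, scaling and DMM 4. Hnf4a was closest to Slc2a2, the glucose transporter of the proximal tubule (r = 0.99, rho = 0.964, and r = 0.979 without the 2 libraries farthest from the median of Hnf4a), followed by Pank1 (r = 0.985) and Sephs2 (r = 0.984). Nr1h4 was closest to mt-Co2, a mitochondrial gene (r = 0.976, rho = 0.903, and 0.976 without 2 libraries), then Ugt1a7c (r = 0.967) and Ndfip2 (r = 0.963). Pax8 was closest to Slc4a9 (r = 0.972, rho = 0.964), which is on the list of FOXI1 targets, and this r was 0.879 without 2 libraries. Sult1a1 (r = 0.956) and Corin (r = 0.944) came next, at 0.936 and 0.754 without the same 2 libraries.

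Hnf4g was closest to Fgl1 (r = 0.951), Slc25a25 (r = 0.943) and 4933431E20Rik (r = 0.928). Tfcp2l1 was closest to Golga4 (r = 0.993), Eif4ebp2 (r = 0.987) and Farp2 (r = 0.986), and Esrrg to Iqgap2 (r = 0.974), 4930402H24Rik (r = 0.972) and mt-Tp (r = 0.97). DMM 4 is among the 2 libraries farthest from the median for Tfcp2l1, Esrrg, Hnf4g and Pax2. Without those 2 libraries the first r was 0.966, 0.926, 0.925 and 0.906 for these factors. Pax2 was closest to Gm13470 (r = 0.975), Traf5 (r = 0.964) and Haus8 (r = 0.964). Foxi1 was least matched, with Col17a1 (r = 0.92), Plk-ps1 (r = 0.911) and Prss27 (r = 0.895), and the first r was 0.87 without control 1 and control 3.

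Some genes overlap the factors, and the strand setting of the authors' counting is not given in the sources used here, so that reads of a gene and its antisense partner may not be separable. Hnf4aos lies opposite Hnf4a (chr2:163493807-163541720, minus strand), with a mean of 0.941 CPM in control and 1.70 CPM in DMM kidneys, far below Hnf4a. Control 3 was at 2.81 CPM, and without control 3 and DMM 1 the means were 0.474 and 2.07 CPM. Hnf4aos had a log2 fold change of 0.85 over all 10 (edgeR adjusted p = 0.703) and 2.11 over the 8 (edgeR adjusted p = 0.174), not called in either, and was called higher without DMM 4 (2.41, edgeR adjusted p = 0.0278). Gm13415 lies opposite Pax8 (chr2:24440418-24486855, plus strand) and averaged 0.567 and 1.26 CPM, with DMM 4 at 3.50 CPM and the other DMM kidneys at 0.453 to 1.09 CPM. It was not called, at 1.15 over all 10, 1.20 over the 8 and 0.26 without DMM 4. Gm13415 shares 276 of the 6237 runs of 50 bases in Pax8 transcripts on the opposite strand (4.43%). Of the other overlapping genes, Gm25881 lies in Hnf4a, Gm23237 and Gm37000 in Hnf4g, 1700039E22Rik, Mir6405 and Gm20395 in Pax2, 9330162B11Rik, Gm36388, Gm37929 and Gm38315 in Esrrg, and Gm22094, Gm23497 and Gm28882 in Tfcp2l1. None of these was tested, at a maximum of 13 counts.

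Promoter windows of 250 bases before the start were taken from RefSeq for 7 of the 8 factors, in build GRCm38.p6, with 13 windows in all, and Hnf4g had no entry. 4 short motifs were searched on both strands, chosen after the values had been seen. An HNF4 site (CAAAGTCCA) was in 0 of 13 windows, against 0.384% of 32851 windows genome-wide, an estrogen-related receptor site (TCAAGGTCA) in 0, against 0.387%, and a forkhead site (TGTTTAC) in 0, against 3.17%. The GC box (GGGCGG) was in 7 of 13, for Esrrg, Foxi1, Hnf4a, Pax2 and Pax8, against 32.7%. A match is a description of letters in the window, and no match says only that these letters are not there. At genome-wide shares this low, 0 of 13 is the likely count for any genes, so these counts do not set the factors apart. Several of the 13 windows belong to the same gene (Esrrg, Pax2 or Hnf4a), so windows are not separate genes. The windows of Hnf4a and Nr1h4 are shown because these were the factors called over the 8 libraries. The start of Nr1h4 in RefSeq lies inside the annotated span of the gene, and its window overlaps no annotated exon and holds no motif searched. Hnf4a has 2 RefSeq starts, 40298 bases apart. For the first, the stretch before the first annotated exon is given, which also lies opposite Hnf4aos and holds no motif searched. The GC box of Hnf4a lies in the rest of this first window, which overlaps the exon and is not printed. The second window overlaps an annotated exon of Hnf4a, holds no motif searched and is not printed.
Nr1h4, chr10:89506659-89506908, minus strand: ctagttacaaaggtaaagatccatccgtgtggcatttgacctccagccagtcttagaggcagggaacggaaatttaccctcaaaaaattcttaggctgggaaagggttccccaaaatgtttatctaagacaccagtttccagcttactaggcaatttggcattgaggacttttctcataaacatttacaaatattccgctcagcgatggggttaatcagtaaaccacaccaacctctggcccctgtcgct
Hnf4a, chr2:163506607-163506807, plus strand: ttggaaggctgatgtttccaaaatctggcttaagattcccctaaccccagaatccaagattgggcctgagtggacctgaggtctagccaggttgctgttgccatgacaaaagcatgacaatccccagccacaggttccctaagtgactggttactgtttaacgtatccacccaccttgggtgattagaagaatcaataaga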

How the data were processed

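The authors aligned reads with HISAT2 2.0.5, per the submitters' processing notes, to the mouse genome mm10 and deposited unnormalized counts of reads per gene. The annotation release and the strand setting of the counting are not given in the sources used here. The authors also deposited FPKM values, used only to repeat the levels per kilobase, and the gene length in base pairs, whose source is not given. Their deposited means of each group are a signal made of counts divided by size factors. They were used only to find which libraries had weight, and control 3 and DMM 1 had 0. Columns of the authors' own comparison (log2 fold change, p-value and adjusted p-value) were not used.

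Counts were filtered with filterByExpr, scaled by TMM and tested in edgeR 4.0.16 (R 4.3.3) by the quasi-likelihood F test, with no covariate. DESeq2 1.42.0 was an alternative. The standard error is the log2 fold change divided by the root of its F statistic. CPM of both sets of libraries use the scaling of all 10. The steps were tested on simulated counts. The factors and gene lists were chosen with earlier results of these data known. All factors were named. Of lists of cell markers and coregulators, the 3 genes of smallest p over all 10 libraries and the most abundant gene were named. Similar genes were ranked by Pearson's r of log2 CPM (prior count 2). Transcripts and overlaps are from GENCODE M21, and promoters from RefSeq. Reads are not independent molecules where no molecular identifiers are described.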

Additional observations from a re-analysis of the deposited data

Results flagged for a closer look

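In 16 groups examined, the 8 factors in control and in DMM kidneys, 1 library lay far from the rest of its group: Tfcp2l1 was at 1279 CPM in DMM 4, against 514 to 660 CPM in the other DMM kidneys. The gap to the next library was 0.809 of the group's range, above the limit of 0.71 for 5 samples. Chance alone gives about 1 such library in 20 groups. DMM 4 also stood apart in the other measures given above, and its part in this value was not tested.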

How the results depend on the processing

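Over all 10 libraries, 0 genes were called by edgeR. The 8 libraries of the deposited means gave 452 higher and 590 lower, 2 of the 8 factors called and 4 past the unadjusted threshold. DESeq2 gave 14 higher and 36 lower, and the unadjusted threshold 315 higher, 678 lower and 1 factor. Leaving out 1 library gave 0 to 50 higher, 0 to 436 lower, 0 factors called in each fit and 0 to 4 past the unadjusted threshold. The log2 fold change of Foxi1 changed sign from 0.107 to -0.0115 over the 8 libraries.

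Within the 8 libraries, DESeq2 called 749 genes higher and 911 lower, with 4 factors. Library size alone, chosen as an alternative after seeing the data, called 276 higher and 700 lower. The unadjusted threshold gave 1067 higher, 1198 lower and 4 factors. Leaving out 1 library gave 131 to 1129 higher, 276 to 1281 lower, 0 to 2 factors called and 2 to 4 past the unadjusted threshold. The log2 fold change of Foxi1 was between -0.0942 and 0.0415 in these fits, with the sign reversed without control 2, control 5 or DMM 5 (0.02, 0.04 and 0.04). The fits over 7 libraries, read for the gene lists, were also chosen after seeing the data. The cause of these differences was not tested.

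With a replicate block, which takes the replicate numbers as pairs that the labels do not state, 0 genes were called higher, 0 lower and 0 factors within the 8 libraries, where 3 factors passed the unadjusted threshold, all higher, against 4.77% of tested genes higher and 6.17% lower. In the replicate block Hnf4a had 0.90 (edgeR adjusted p = 0.171), Nr1h4 0.76 (edgeR adjusted p = 0.176) and Hnf4g -0.0671, of opposite sign to 0.16. Control 1 and DMM 3 have no partner of the same number among the 8, so they add nothing to the group difference in this fit. Fewer libraries thus bear on it than in the fit without a block, and the part of pairing in the lost calls was not tested.

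Over all 10 libraries Hnf4g was near 0, at 0.0008, and between -0.129 and 0.0935 with 1 library left out. It was -0.0725 with library size alone and -0.0143 with no filter on low counts. The direction of Hnf4a, Nr1h4, Tfcp2l1, Esrrg, Pax8 and Pax2 was kept in every alternative run. The control levels per kilobase moved by less than their SD when taken from the deposited FPKM. With 5 libraries a group, and 3 of all 10 libraries standing apart, small differences of the factors are not resolved. Genes near 0 counts, such as Nr0b2, have no test.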

Other observations

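Podocyte markers, of which 7 of 7 were tested, summed to between 703 and 889 CPM in controls and between 696 and 1056 CPM in DMM kidneys, with a median log2 fold change, the measure used for all differences here, of 0.07 over all 10 libraries, -0.07 over the 8 and -0.19 without DMM 4. Podxl was the most abundant, at 0.10 over all 10 and 0.02 over the 8, Synpo had 0.10 and -0.07, and Nphs1 -0.10 and -0.29. Without DMM 4, where Podxl was at 544 CPM against 281 to 405 CPM in the other libraries, these were -0.25, -0.11 and -0.19, and Podxl passed the adjusted p (edgeR adjusted p = 0.0357) with a fold change under 1.5. Endothelial markers had medians of 0.16 over all 10, 0.20 over the 8 and -0.04 without DMM 4, and Pecam1 was the most abundant of 7. Ehd3, Flt1 and Kdr had 0.20, 0.46 and 0.20 over all 10, 0.25, 0.54 and 0.22 over the 8, and 0.20, 0.11 and 0.05 without DMM 4. Urothelium markers had medians of -0.26 over all 10, -0.38 over the 8 and -0.12 without DMM 4, and Krt20 was the most abundant of 8, at 0.36, 0.28 and 0.38. Upk3a and Upk3b had -0.53 and -0.48 over all 10, -0.63 and -0.38 over the 8, and -0.26 and -0.14 without DMM 4. In these lists edgeR called 0 genes in either set and 0 without DMM 4, 0 passed its unadjusted threshold, and DESeq2 called 0.

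Liver and adrenal markers were read as well. Of 6 liver markers 3 were tested, and the list summed to between 8.78 and 17.5 CPM in controls and between 8.15 and 57.4 CPM in DMM kidneys. Serpina1a, its most abundant gene, had a mean of 19.5 CPM, and Cyp2c29 was at 0 in all libraries. EdgeR and DESeq2 called 0 over all 10 libraries, with 2 higher at the unadjusted threshold, Serpina1a and Apoa2, at 1.34 and 0.89. 2, Serpina1a and Alb, were called higher by either tool over the 8, at 1.73 and 2.44, where Apoa2 had 1.20, and all 3 without DMM 4. The median was 1.33 over all 10 and 1.73 over the 8. The adrenal list summed to between 4.08 and 10.5 CPM, with Star the most abundant and alone tested by edgeR, with a log2 fold change of -0.34 over all 10 and -0.43 over the 8, and Cyp11b2 and Hsd3b1 were at 0. EdgeR did not call Star in either set, nor did it pass the unadjusted threshold. DESeq2, run without the filter on low counts, called 1 of the list lower over the 8 (Cyp11b1, named after its value was seen).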
